A study of Rattus norvegicus with 17 samples.

Results

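The genes described here are the interleukin 1 family ligands Il1a, Il1b, Il18 and Il33, the antagonists Il1rn and Il18bp, the decoy receptor Il1r2 and the receptor chains Il1r1, Il1rap and Il1rl1, measured in the skin of hairless rats. They were chosen by name, through array probes whose sequence name maps to one of these 10 symbols. A probe was matched for 9 of the 10 genes, 12 probes of 30367 in all, and none was matched to Il1r1, for which no value is given. Of the 9 genes 8 were bright enough to be tested, among 11166 named genes that were. Skin explants came from male CD hairless rats that were 2 to 3 months old at the start. The exposed rats received 94 GHz millimetre waves over 5.5 months, in sessions of 3 h held 3 days a week, and the other rats were sham exposed. Each explant was hybridised to a 1-colour Agilent array, 9 exposed and 8 sham. Slides were read from the leading number of the code in each sample title, which gave 4 slides. The titles themselves do not name that number as a slide. The submitters count 6 exposed animals and 8 sham ones, fewer exposed animals than exposed arrays, so an animal may have given several of these. The labels tie no array to an animal, so the p-values measure the spread between arrays and may be too small.

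The interleukin 1 family drives the first step of inflammation in barrier tissue. Keratinocytes hold IL-1α and IL-33 as alarmins that are set free by damage, whereas IL-1β and IL-18 are made as precursors that caspase-1 cuts before release. Receptor chains pass the signal through Myd88 and Irak kinases to NF-κB. The secreted antagonist encoded by Il1rn blocks the IL-1 receptor, Il18bp traps IL-18, Il1r2 binds IL-1 without signalling, Il1rap is the accessory chain shared by several receptors, and Il1rl1 encodes ST2, the receptor of IL-33.

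The arrays held skin, since the 4 measured basal keratinocyte markers and the 5 measured suprabasal ones lay well above background on all 17 arrays, with Krt14 and Krt1 the brightest of them. The 75th percentile of the processed signal, which sets the zero of every log2 level below, ran from 1077 to 1703. Between 66.7% and 70.8% of probes lay well above background, and no spot was saturated. The explants differed in what tissue they held: the skeletal muscle marker score ranged from -3.34 to 5.49 log2 units in exposed skin and from -3.31 to 4.90 in sham skin, and the hair follicle score from -2.66 to 1.71 and from -5.86 to 1.85. The mean muscle score was 0.76 in exposed and -0.86 in sham skin, and the mean follicle score 0.32 and -0.36. These group differences in scores were not tested. In whole explants, fewer cells of a type and less RNA per cell cannot be told apart.

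Because the data bear on how Il1a, Il1b and Il18 vary together, the 250 bases before the start of each are shown, from RefSeq on GRCr8. Il1a lies at chr3:136990018-136990267 on the minus strand, Il1b at chr3:137036582-137036831 on the minus strand, and Il18 at chr8:59801822-59802071 on the plus strand. Capitals mark matches, on either strand, to the AP-1 motif TGANTCA or the TATA box TATAAA, which do not overlap one another here. A NF-κB motif was searched as well.
Il1a: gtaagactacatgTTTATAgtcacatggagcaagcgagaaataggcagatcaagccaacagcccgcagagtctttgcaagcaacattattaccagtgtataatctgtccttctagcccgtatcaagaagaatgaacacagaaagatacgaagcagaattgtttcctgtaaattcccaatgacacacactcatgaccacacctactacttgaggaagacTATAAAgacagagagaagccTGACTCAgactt
Il1b: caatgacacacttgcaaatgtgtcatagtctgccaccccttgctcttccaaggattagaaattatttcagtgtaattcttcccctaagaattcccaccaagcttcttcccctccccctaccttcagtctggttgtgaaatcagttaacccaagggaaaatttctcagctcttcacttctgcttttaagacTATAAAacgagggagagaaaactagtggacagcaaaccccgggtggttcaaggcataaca
Il18: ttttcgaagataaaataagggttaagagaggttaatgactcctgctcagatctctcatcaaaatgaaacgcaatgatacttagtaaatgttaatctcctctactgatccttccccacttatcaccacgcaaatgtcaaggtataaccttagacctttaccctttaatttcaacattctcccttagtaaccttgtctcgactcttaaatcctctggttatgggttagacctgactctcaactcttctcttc
Counted from the gene's start, the Il1a window held an AP-1 match at position -12 and TATA matches at -32 and -237, and the Il1b window a TATA match at -60. The Il18 window matched none of these letters, and none of the 3 windows held the NF-κB motif. Among 33469 promoter windows of this length, 0.314% held the NF-κB motif, 6.34% the AP-1 letters and 12.9% the TATA letters. A match is a string of letters and not a site shown to be bound.

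None of the family genes differed between exposed and sham skin beyond the spread between arrays. Of the 8 tested genes 0 passed the threshold of 0.05 on limma's p adjusted by Benjamini-Hochberg over 20709 probes, against 0% of all probes, and 0 had an unadjusted p under 0.05, against 4.55% of all probes. At that unadjusted level 0.594% of all probes were higher and 3.96% lower in exposed skin. Il33, Il1rn, Il18bp and Il1rl1 had a higher mean in exposed skin and Il1a, Il1b, Il18 and Il1r2 a lower one. Over all tested probes 61.3% had a lower mean in exposed skin. The median difference over the 8 genes was -0.027 log2 units, beside -0.025 over all tested probes. In all 8 genes the exposed and sham arrays overlapped, and the share of all probes that did so is not given. For 5 of the 8 genes the 95% interval stayed inside a 1.5-fold change in both directions, and for 7 inside a 2-fold change, compared with 87.4% and 96.4% of all probes.

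**Figure D1:**
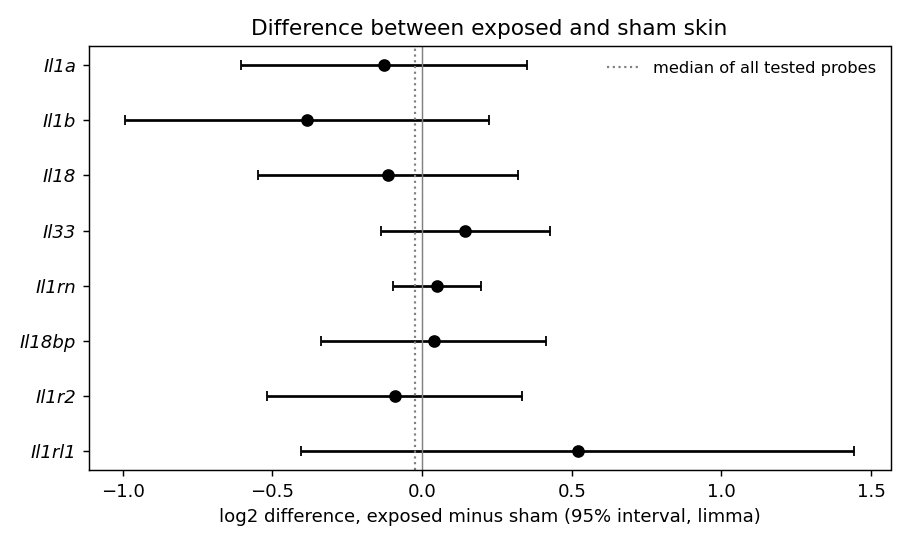
The horizontal axis gives the log2 difference of exposed minus sham skin for the 8 tested genes, with points for the limma estimate and bars for its 95% interval (9 exposed and 8 sham arrays). All 8 intervals cross 0, from the narrow interval of Il1rn (-0.096 to 0.20) to the wide one of Il1rl1 (-0.40 to 1.44), and the dotted line marks the median of all tested probes at -0.025.

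Il1b, whose precursor caspase-1 cuts, had the largest lower mean in exposed skin. Its log2 level on the exposed arrays ran from -0.84 through a median of -0.017 to 0.14, and on the sham arrays from -0.78 through 0.33 to 2.01. None of the 9 exposed arrays reached the sham mean or the sham median, but 2 sham arrays, replicates 3 and 7, lay among the lowest at -0.70 and -0.78, and only exposed replicate 3 was below them. The means were -0.14 ± 0.31 (SD, n = 9) and 0.25 ± 0.86 (SD, n = 8), a difference of -0.38 (95% interval -0.99 to 0.22, limma adjusted p = 0.983). On a linear scale that interval runs from 0.503-fold to 1.17-fold. Sham replicate 6 stood apart at 2.01, with the next sham array at 0.37, and without it the difference was -0.13.

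Il1a, the alarmin form of interleukin 1, gave levels of -0.79 to 0.90 on the exposed arrays with a median of 0.44, and of -0.18 to 0.92 on the sham arrays with a median of 0.36. Exposed replicates 2, 3 and 8 lay below every sham array, and the other 6 exposed arrays were higher than the mean of the sham group. The difference was -0.13 (95% interval -0.60 to 0.35, limma adjusted p = 0.985), and it was -0.0026 without exposed replicate 3 and -0.21 without exposed replicate 1. A separate Il1a probe, dimmer and printed once per array, gave -0.23 and followed the first with Pearson r = 0.89 over the 17 arrays.

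Il18, whose product acts on T and natural killer cells, ran from 1.26 through 2.23 to 2.69 on the exposed arrays and from 1.63 through 2.42 to 2.91 on the sham arrays. Exposed replicate 3 was the lowest of all arrays and sham replicate 5 the highest. The groups differed by -0.11 (95% interval -0.55 to 0.32, limma adjusted p = 0.985), a difference that went to 0.0073 without exposed replicate 3.

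Il33 ran from -0.070 through 0.73 to 1.03 on the exposed arrays and from 0.12 through 0.52 to 1.01 on the sham arrays. Above the sham mean were 7 of the 9 exposed arrays, while exposed replicate 1 was the lowest array of all. The difference was 0.14 (95% interval -0.14 to 0.43, limma adjusted p = 0.983), and 0.24 without that array. It was the only one of the 8 genes whose mean difference had the same sign on every slide, at 0.10, 0.29, 0.26 and 0.11 on slides 1 to 4.

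Among the inhibitors, Il1rn was the steadiest gene of the family. It ran from 2.90 through 3.13 to 3.29 on the exposed arrays and from 2.86 through 3.06 to 3.35 on the sham arrays, so that the highest and lowest of 17 arrays differed by 1.40-fold. The difference of 0.050 (95% interval -0.096 to 0.20, limma adjusted p = 0.983) corresponds to 0.935-fold to 1.15-fold. Il18bp ran from -3.08 through -2.66 to -1.92 on the exposed arrays and from -3.27 through -2.73 to -2.06 on the sham arrays, with means of -2.63 ± 0.38 (SD, n = 9) and -2.67 ± 0.39 (SD, n = 8). Its groups differed by 0.039 (95% interval -0.34 to 0.41, limma adjusted p = 0.991), which turned to -0.050 without exposed replicate 3 and to -0.048 without sham replicate 2.

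The receptor genes were measured less evenly. The decoy receptor Il1r2 ran from 0.46 through 1.12 to 1.56 on the exposed arrays and from 0.60 through 1.11 to 2.39 on the sham arrays. Sham replicate 5, the highest, lay far above the next sham array at 1.42. The difference was -0.092 (95% interval -0.52 to 0.33, limma adjusted p = 0.987), and 0.079 without sham replicate 5.

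Il1rl1 was detected well above background on 7 of the exposed arrays and 6 of the sham ones, and dim on the rest. It ran from -6.34 through -4.73 to -3.63 on the exposed arrays and from -6.64 through -5.27 to -3.59 on the sham arrays, with 7 of the 9 exposed arrays higher than the mean of the sham group. The difference of 0.52 (95% interval -0.40 to 1.44, limma adjusted p = 0.983) was 0.094 when the background was corrected by normexp, and 0.31 without sham replicate 5. A different Il1rl1 probe, with another sequence name, was well above background on 0 of 17 arrays. For Il1rap, 1 probe was detected on 0 arrays of exposed skin and 2 of sham skin and the other on 1 of each, and the gene was not tested.

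**Figure D2:**
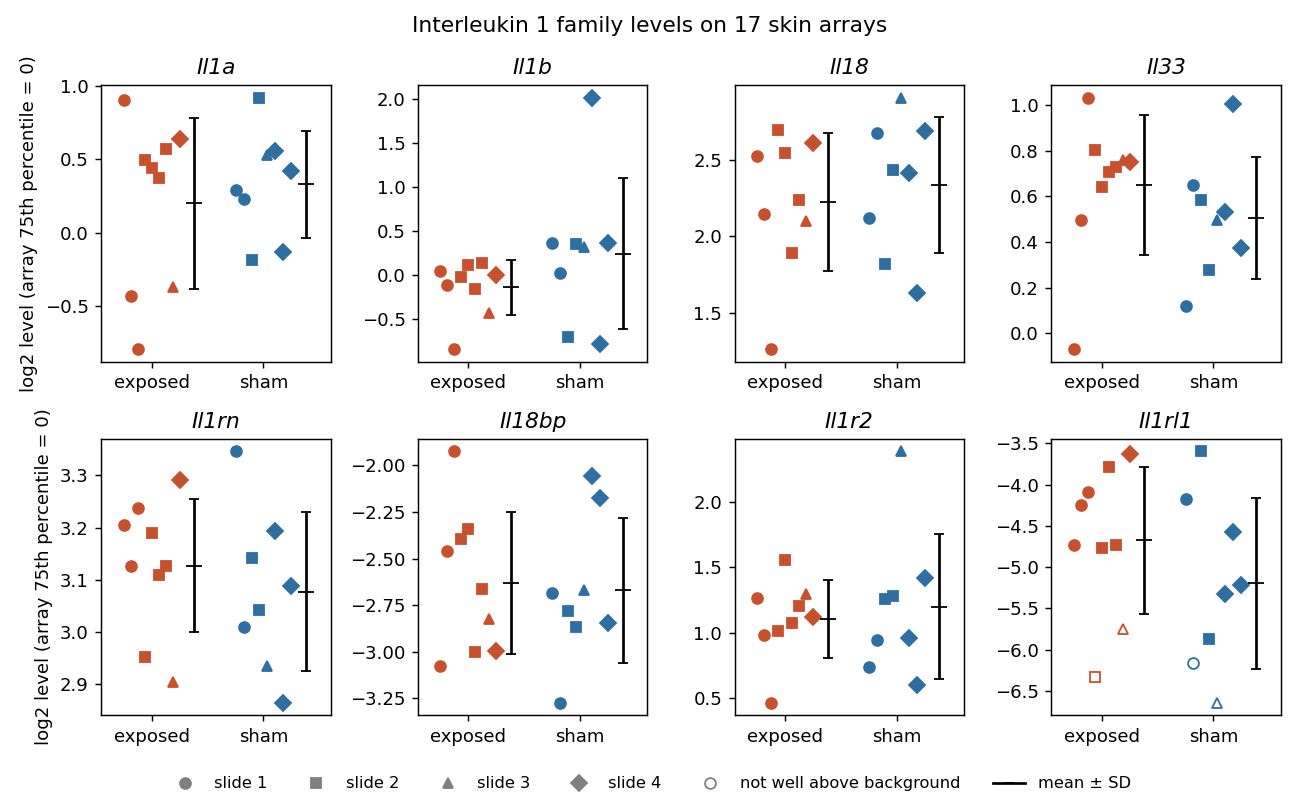
Each panel plots 1 gene, with the log2 level relative to the array's 75th percentile on the vertical axis, 1 point per array, exposed arrays in orange and sham arrays in blue. Point shapes give the slide, open points were not well above background, and the black bar is the mean ± SD. The exposed and sham points overlap in every panel, and single arrays stand apart for Il1b (sham replicate 6 at 2.01), Il1r2 (sham replicate 5 at 2.39) and Il33 (exposed replicate 1 at -0.070).

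Both groups were present on each of the 4 slides, which from the first to the last held 3, 4, 1 and 1 exposed arrays beside 2, 2, 1 and 3 sham arrays. With slide as a block the differences were -0.13 for Il1a, -0.29 for Il1b, -0.091 for Il18, 0.19 for Il33, 0.049 for Il1rn, 0.089 for Il18bp, -0.12 for Il1r2 and 0.59 for Il1rl1, and none passed the test. Il1b differed by -0.50, 0.20, -0.75 and -0.54 on slides 1 to 4, and Il1rl1 by 0.81, -0.17, 0.90 and 1.41. Slide accounted for 48.8% of the variance of Il1r2 over the arrays, the largest share of the 8 genes (limma adjusted p for slide = 0.463). The median over all tested probes was 19.8%. Slide 3 held only 1 exposed and 1 sham array, and that sham array was replicate 5, the highest for Il1r2. Between slides, 0 of 20709 probes (0%) passed the adjusted threshold in limma, and 1844 had an unadjusted p under 0.05.

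Repeat spots on 1 array and separate arrays gave the following spreads. Il1b was printed 10 times on each array, and its spots on 1 array differed with an SD of 0.093 log2 units, against an SD of 0.64 between arrays. For Il1a, also printed 10 times, these were 0.052 and 0.48. For Il18 they were 0.054 and 0.44, for Il33 0.034 and 0.29, and for Il1r2 0.033 and 0.43. For Il1rl1, which was well above background on only 13 of the 17 arrays, they were 0.17 and 0.97. For Il1rn they were 0.091 and 0.14, the closest of those named here. Set against the SD of all tested probes, whose median was 0.19, Il1rl1 lay at the 97.8th percentile, Il1b at the 95.1st, Il1a at the 90.4th and Il1rn at the 27.9th. The antagonist of interleukin 1 thus varied less between explants than the median probe did, while both ligands it opposes varied more than most.

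The same arrays recurred at the extremes. Exposed replicate 3 was the lowest of the 17 arrays for Il1a, Il1b, Il18 and Il1r2 and the highest for Il33 and Il18bp. Sham replicate 5 was the highest for Il18 and Il1r2 and the lowest for Il1rl1. On exposed replicate 3 the basal keratinocyte marker score was the lowest of all arrays, at -0.36, and on sham replicate 5 the hair follicle score was the lowest, at -5.86, and the fibroblast score the highest, at 1.10. The part of these tissue differences in the gene levels was not tested.

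Over the 17 arrays Il1a and Il18 rose and fell together. Their Pearson r was 0.73 (permutation p = 8e-04, adjusted p = 0.022 over the 28 pairs of tested genes), and it was the 1 pair of 28 that passed. Spearman's rho was 0.58 (permutation p = 0.0166), which did not pass over the 28 pairs (adjusted p = 0.077). Without exposed replicates 2 and 3, the arrays farthest from the median of Il1a, r was 0.61, at an adjusted p of 0.115 over the permutation tests of all pairs. It was 0.77 among the exposed arrays, 0.69 among the sham arrays, 0.79 after the slide means were removed, and 0.79, 0.63 and 0.91 within slides 1, 2 and 4.

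Other pairs missed the threshold over 28 pairs. The strongest were Il18 with Il1r2 (r = 0.66, adjusted permutation p = 0.055), Il1rn with Il1rl1 (r = 0.65, adjusted permutation p = 0.055) and Il18 with Il1rl1 (r = -0.61, adjusted permutation p = 0.063). Il1a and Il1b had r = 0.59 and rho = 0.64 (permutation p = 0.0130 and 0.00643, adjusted p = 0.073 and 0.060), and Il1b and Il18 had r = 0.56. Il1rn had r = 0.11 with Il1a and 0.24 with Il1b, the ligands whose action its product blocks. Il33 had r = -0.55 with Il1a, -0.43 with Il1b and -0.44 with Il18, and its r with its receptor gene Il1rl1 was 0.08. Il18 and its trap Il18bp had r = -0.44. None of these values passed the adjustment, and points share arrays, slides and perhaps animals. Some calls changed with the form of the test. With slide means removed, Il18 with Il1r2 (r = 0.73), Il1a with Il1b (0.61), Il1a with Il33 (-0.73) and Il33 with Il1r2 (-0.62) passed beside Il1a with Il18, each at an adjusted permutation p of 0.049. With group means removed, Il18 with Il1r2 (adjusted permutation p = 0.035) and Il1a with Il1b (0.019) passed beside Il1a with Il18 (0.019). Without the 2 farthest arrays, the pairs that passed were Il1b with Il18 (r = 0.73, adjusted permutation p = 0.025) and Il1rn with Il1rl1 (r = 0.78, adjusted permutation p = 0.020).

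**Figure D3:**
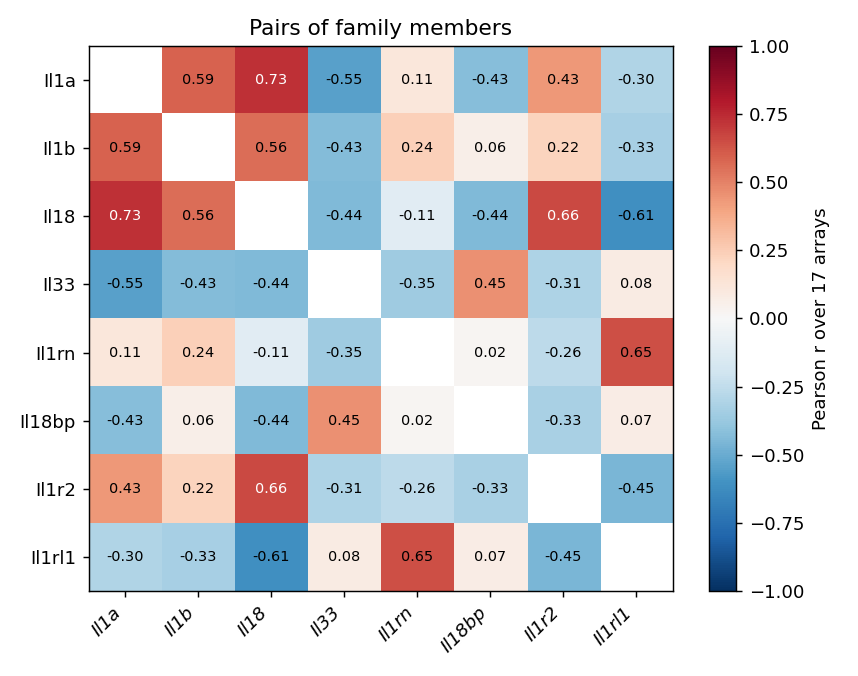
The grid gives Pearson r over the 17 arrays for each of the 28 pairs of tested genes, red for positive and blue for negative values. Il1a, Il1b and Il18 were positive with one another (0.56 to 0.73), and Il33 was negative with all of them (-0.55 to -0.43).

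Il1r2, Il1b, Il18 and Il1rl1 each had 1 marker score with which they passed the test. A marker score is the mean over a list of the log2 level minus that gene's own mean over the arrays, and 4 of the 96 pairs of a gene and a score passed the adjustment. Il1r2 followed the 6 measured of 7 fibroblast markers, led by Col1a2, with r = 0.90 and rho = 0.88 (permutation p = 1e-05 for r, the smallest the resampling can give, adjusted p = 0.00096). Without sham replicates 2 and 5, the farthest arrays, r was 0.80 (adjusted permutation p = 0.032). It was 0.63, 0.96 and 0.84 within slides 1, 2 and 4, and 0.84 with slide means removed, which missed the threshold (adjusted permutation p = 0.055). The fibroblast score itself ran from -0.35 to 0.33 in exposed and from -0.49 to 1.10 in sham skin.

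Il1b followed the 4 measured of 7 basal keratinocyte markers, with r = 0.74 and rho = 0.76 (permutation p = 0.00053 and 0.00056, adjusted p = 0.017 and 0.018). Without exposed replicate 3 and sham replicate 3, r was 0.65 and no longer passed (adjusted permutation p = 0.28), and without sham replicate 6, the array with the most Il1b, it was 0.72. Within slides 1, 2 and 4 it was 0.90, 0.80 and 0.999, and with slide means removed 0.71 (adjusted permutation p = 0.016). Slide 4 held only 1 exposed and 3 sham arrays, among them sham replicate 6. The basal keratinocyte score ran from -0.36 to 0.21 in exposed and from -0.28 to 0.29 in sham skin. Of its list, Itga6, Col17a1 and Trp63 had no named probe.

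Il18 followed the 5 measured of 9 suprabasal keratinocyte markers, with r = 0.74 and rho = 0.73 (permutation p = 9e-04 and 0.00131, adjusted p = 0.022 and 0.031). Without exposed replicates 3 and 6, r was 0.62 and no longer passed (adjusted permutation p = 0.33). Within slides 1, 2 and 4 it was 0.83, 0.78 and 0.77, and with slide means removed 0.73 (adjusted permutation p = 0.032). Il1rl1 followed the 8 measured of 10 hair follicle markers, with r = 0.70 and rho = 0.70 (permutation p = 0.00049 and 0.0022, adjusted p = 0.017 and 0.042). Without exposed replicate 4 and sham replicate 5, which had the lowest follicle scores, r was 0.46 and no longer passed (adjusted permutation p = 0.51). Within slides 1, 2 and 4 it was 0.22, 0.86 and 0.73, and with slide means removed 0.61, which missed the threshold (adjusted permutation p = 0.064). On those same arrays Il1rl1 was not well above background.

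**Figure D4:**
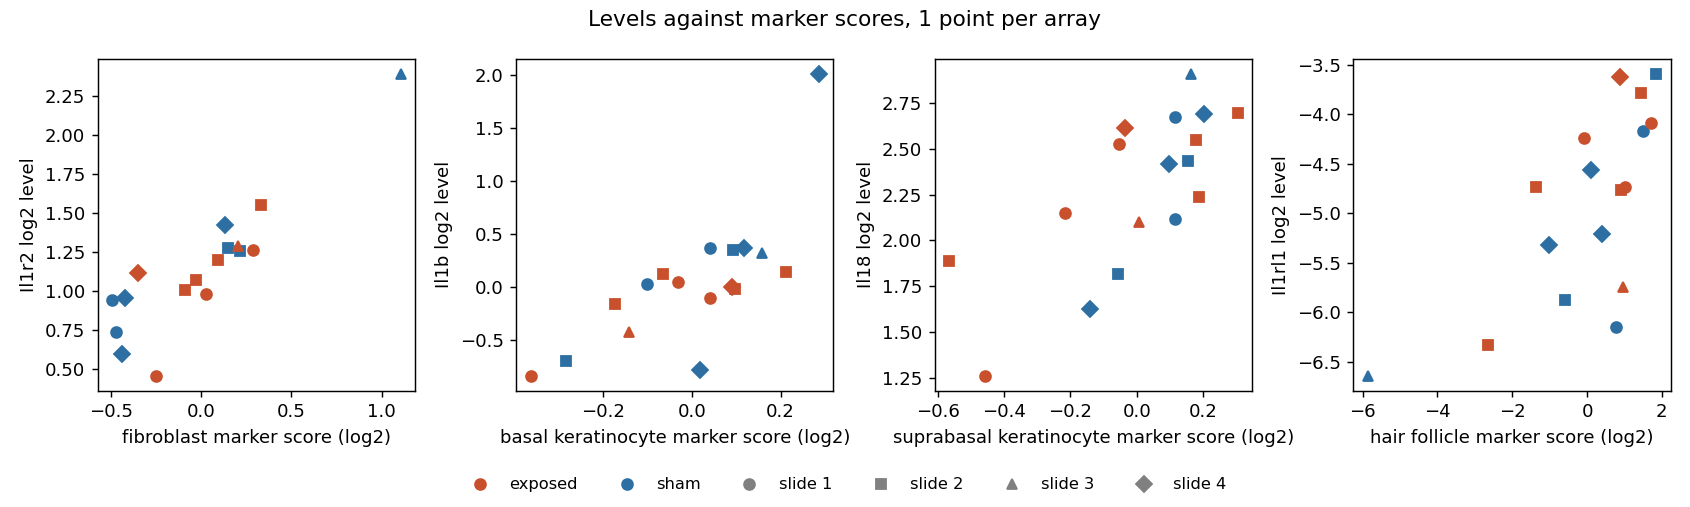
The 4 panels plot the log2 level of a gene against a marker score, both in log2 units, 1 point per array, exposed in orange and sham in blue, with point shapes for the slide. Il1r2 rises with the fibroblast score (r = 0.90), Il1b with the basal (0.74) and Il18 with the suprabasal keratinocyte score (0.74), and Il1rl1 with the hair follicle score (0.70), where sham replicate 5 lies alone at -5.86.

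The remaining scores gave no pair past the threshold by Pearson r. Il1r2 and the 8 sebaceous gland markers had r = 0.72 (adjusted permutation p = 0.056) but passed by Spearman's rho, at 0.81 (adjusted permutation p = 0.012). Il1rl1, known from mast cells, had r = -0.41 with the 8 measured mast cell markers, and Il1b had r = 0.31 with the 10 macrophage and 0.19 with the 5 measured of 8 neutrophil markers, of which Csf3r, Mmp8 and Ngp were too dim. The skeletal muscle score had r = -0.55 with Il1b (rho = -0.66, adjusted permutation p = 0.12 and 0.061), and the endothelial score had r = 0.64 with both Il33 and Il18bp (adjusted permutation p = 0.059 for each). Il1a and Il18 had r = 0.64 and 0.63 with the basal keratinocyte score (adjusted permutation p = 0.059 for each). With slide means removed, the skeletal muscle score passed with Il1b (r = -0.61) and Il1a (-0.68) and the endothelial score with Il1r2 (-0.71), each at an adjusted permutation p of 0.035. What part tissue composition has in the differences between exposed and sham skin was not tested.

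**Figure D5:**
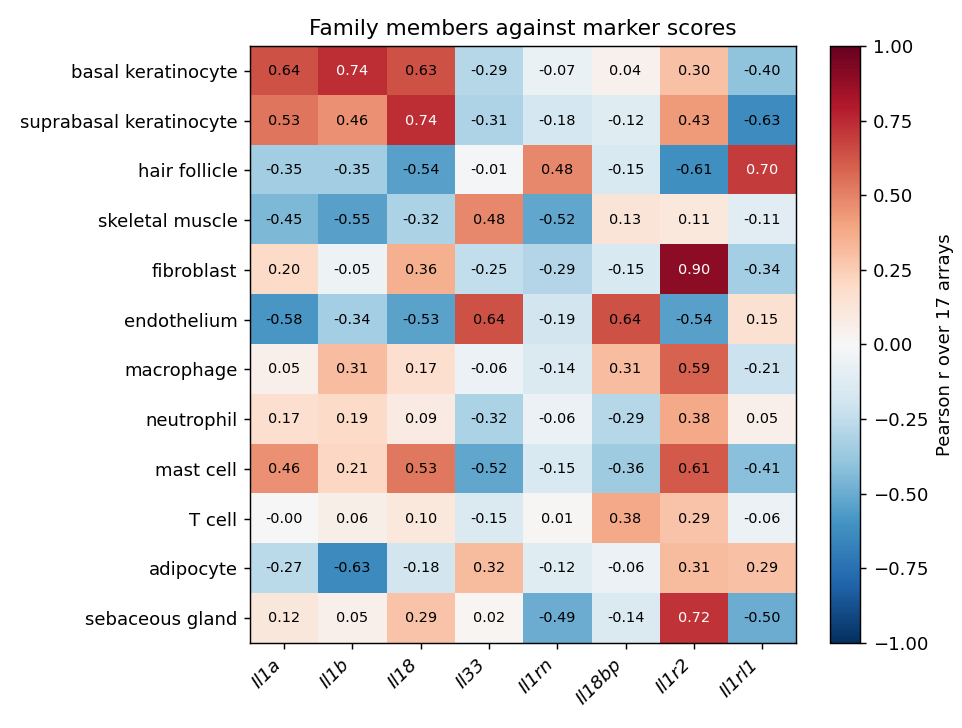
The grid gives Pearson r over the 17 arrays between each of 12 marker scores (rows) and each of the 8 tested genes (columns). The 4 pairs that passed the adjustment over 96 pairs are fibroblast with Il1r2 (0.90), basal keratinocyte with Il1b (0.74), suprabasal keratinocyte with Il18 (0.74) and hair follicle with Il1rl1 (0.70).

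For the 7 family genes other than Il1rl1, the genes most like each over the 17 arrays were taken from 10305 named genes that were well above background on all arrays, by Pearson r and with no test. Il1rl1 was left out because it was not above background on all of them. Il18 was matched most closely, by Lce1e, of the late cornified envelope (r = 0.95), and Mycbpap (0.95). Il1a was matched by Naa35 (0.89), by Il36g, an epidermal cytokine of the same family (0.89), and by the glycolipid transfer gene Gltp (0.88). Ranked by Spearman's rho instead, Naa35 stayed in place 1 for Il1a, but Gltp was in place 16 and Il36g in place 82 (rho = 0.74). Il1r2 was matched by the cathepsin gene Ctsh (0.94), Pdgfrl (0.94) and Plaat3 (0.94), and Il18bp by the osteopontin gene Spp1 (0.92), the potassium channel gene Kcnn4 (0.91) and Matk (0.91). For Il18bp, the places by rho were 3 for Spp1, 22 for Kcnn4 and 9 for Matk.

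Il33 was matched by the integrin gene Itga7 (0.87), the adrenergic receptor gene Adra2a (0.84) and the galectin gene Lgals9 (0.83). Il1rn had the weakest matches, Cnot11 (0.84), Frmd8 (0.80) and Bmt2 (0.79), in places 5, 32 and 1 by rho. For Il1b the closest were Ebi3, a cytokine subunit (0.92), Cd8b (0.88) and the carbonic anhydrase gene Car4 (0.87), but these rest in part on sham replicate 6. Without it they were 0.77, 0.75 and 0.69, and by Spearman's rho over all arrays they stood at 0.63, 0.63 and 0.59. At r over 0.8 there were 159 genes for Il18 and for Il1r2, 70 for Il1a, 31 for Il18bp, 29 for Il1b, 7 for Il33 and 1 for Il1rn.

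The wider pathway showed no difference past the threshold either. Of 71 listed genes 53 were tested, 6 were too dim, among them Nlrp3, Il6 and Ptgs2, and 12 had no named probe. In limma, with adjustment over all probes, 0 of 53 passed the 0.05 threshold. Of the 53, 21 had a higher and 32 a lower mean in exposed skin, beside 61.3% of all tested probes with a lower one. The median difference of the 53 genes was -0.021, beside -0.025 over all probes. At an unadjusted p under 0.05 there were 2 of the 53, beside 4.55% of all probes. These were Chuk, the IκB kinase subunit, at -0.19 (95% interval -0.30 to -0.070), and Nfkbia, which encodes the NF-κB inhibitor IκBα, at -0.19 (-0.37 to -0.018), both at a limma adjusted p of 0.983.

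Among the 8 tested of 11 further ligands, receptors and regulators, Il36a was at 1.08 (-0.68 to 2.84), detected on 8 of the exposed arrays and 5 of the sham ones. It was at 0.53 under normexp, 0.54 with array weights and 0.66 without sham replicate 6. Further values were Il1rl2, the receptor of the IL-36 cytokines, at 0.13 (-0.33 to 0.60), a sign that normexp turned, Il18r1 at -0.21 (-0.46 to 0.049) and Il1f10 at -0.10 (-0.46 to 0.26). Of the 8 tested of 12 genes of precursor processing, Nlrp1a, of the inflammasome sensors, was at 0.18, a sign that normexp turned, the protease gene Capn2 at 0.10, the caspase gene Casp8 at -0.15 and Casp4 at -0.14. Of the 19 tested of 26 signalling genes 5 had a higher and 14 a lower mean in exposed skin, beside 61.3% of all tested probes with a lower one. The kinase gene Irak4 was at 0.10, a sign that normexp turned, and the ribonuclease gene Zc3h12a at 0.072.

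Of the 18 tested of 22 target genes, the proteases Mmp9 and Mmp13 were at 0.52 (-0.85 to 1.90) and 0.29 (-0.90 to 1.48), Nos2 at -0.47 (-0.98 to 0.037) and the neutrophil chemokine gene Cxcl2 at -0.51 (-2.24 to 1.21), none of which passed. Nos2 was at -0.24 without sham replicate 6 and at -0.26 under normexp, and Mmp9 at 0.17 and Mmp13 at 0.13 under normexp. The difference of Cxcl2 rests on 1 array. Its level on sham replicate 6, the array with the most Il1b, was 2.16, against -3.11 on the next highest array and a median of -4.68, and without that array the difference was 0.35. Mmp9 went to 0.047 and Mmp13 to -0.067 without sham replicate 5, and to 0.24 and 0.016 without exposed replicate 2. Of the 18 targets 7 were at their highest of all arrays on sham replicate 6: Cxcl2, Tnf, Ptges, Nos2, Csf3, Icam1 and Sod2, which were singled out after their values were seen. Nos2 stood there at -4.03 against -5.11 on the next array, Ptges at 0.32 against 0.12 and Tnf at -1.11 against -1.25. Ccl20, another of the 18 targets, was at its lowest of all arrays on sham replicate 6. That array also had the lowest 75th percentile, 1077, and the lowest share of probes well above background, 66.7%. The share of all probes at their highest on it is not given. Sham replicates 2 and 5 each had 5 of the 18 targets at their lowest of all arrays.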

How the data were processed

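Total RNA from 17 skin explants, 9 exposed and 8 sham, was labelled with Cy3 and hybridised to 1-colour Agilent arrays, per the labels. The authors obtained intensity values with Agilent Feature Extraction 10.7.3.1, protocol GE1_107_Sep09, per the file headers; the processed signal was used. A deposited table of log2 values covers 14853 probes, each centred on its median over the arrays; how it was scaled and its probes chosen is not stated. Its columns followed the scanner values with r of 0.981 to 0.999, which settled its direction, and it served as an alternative. Quality flags per spot, given as 0 or 1 scores of no other unit, are those of Feature Extraction, per the file headers.

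For each probe the log2 processed signal was taken relative to the 75th percentile of its array, with control and outlier spots left out and spots of a probe averaged. Probes well above background (in at least 50% of spots) on at least 8 arrays were kept, 20709 of 30367. The grid is annotated on build rn4. Sequence names were matched to a RefSeq table of GRCr8, used for names, and 17998 probes got a symbol. A gene was read from its kept probe with the highest mean. The comparison of groups used limma 3.58.1 under R 4.3.3 (moderated test, Benjamini-Hochberg, threshold 0.05). Correlations used two-sided permutation tests with 100000 resamples, adjusted over each family of pairs; relations after removal of slide or group means were permuted within them. Named genes were all members, the 3 genes most alike by Pearson r for each of the 7 members above background on all arrays (1 of these genes is not reported here), and the 2 pathway genes farthest in each direction in each class. The members and lists were chosen with earlier results of these data known. The files used here give the median spot signal, on which normexp (offset 50) was run. Tested on simulated arrays, this comparison recovered 38.4% of 1.25-fold changes, 71.0% at 1.5-fold and 88.6% at 2-fold. The simulated arrays were independent of one another, and the changes were put into probes drawn at random from 20693. Most of those probes varied less between arrays than each tested family gene other than Il1rn did, so the shares may be too high for these genes. Many probes were changed at once in each simulated set, which eases the Benjamini-Hochberg threshold, whereas 0 of 20709 probes passed in the data. For a lone changed gene the shares may be too high for that reason as well. The number of arrays limits the precision.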

Additional observations from a re-analysis of the deposited data

Results flagged for a closer look

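Dixon's rule marked 6 values among 40 groups of arrays (8 genes and 12 marker scores, exposed and sham), where chance alone marks about 1 group in 20. For Il1b, sham replicate 6 lay at 2.01 with the next sham array at 0.37. For Il33, exposed replicate 1 lay at -0.070 with the next exposed array at 0.50. For Il1r2, sham replicate 5 lay at 2.39 with the next at 1.42. The same array had the lowest hair follicle marker score, -5.86, with the next sham array at -1.02, and the highest fibroblast marker score, 1.10, with the next at 0.21. The endothelium marker score of sham replicate 7 was 0.52, with the next sham array at 0.0017.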

How the results depend on the processing

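No paired analysis was possible because the labels carry no replicate number that pairs exposed with sham arrays. Under all 9 processing alternatives and with each of the 17 arrays left out, 0 probes, 0 family genes and 0 pathway genes passed the adjusted threshold; with 1 array left out, 680 to 1354 probes had an unadjusted p under 0.05, against 943 over all arrays and 579 in the value table, which holds fewer probes. Rescaling, normexp, array weights and the block left every family difference on its side of 0. Single slides turned Il1a to 0.10 and 0.36 and Il18 to 0.22 and 0.37 on slides 2 and 4, Il1b to 0.20 and Il1rl1 to -0.17 on slide 2, Il1r2 to 0.060 and 0.13 on slides 1 and 4, Il18bp to -0.15 and -0.64 on slides 3 and 4, and Il1rn to -0.031 on slide 3. With 1 array left out, the ranges that crossed 0 were -0.21 to 0.0073 for Il18, -0.18 to 0.079 for Il1r2, -0.050 to 0.13 for Il18bp, -0.75 to 0.35 for Cxcl2 and -0.067 to 0.50 for Mmp13. Normexp with the 75th percentile turned Il1rl2 to -0.11, Nlrp1a to -0.021 and Irak4 to -0.00060, and normexp with quantile scaling Il1rl2 to -0.0045; the cause was not tested. Of the 28 pairs of genes 1 passed, but 0 by Spearman's rho, 2 without the 2 farthest arrays, 5 centred on slide means, 3 centred on group means and 2 with median scaling. Of the 96 pairs with marker scores 4 passed, 1 (fibroblast with Il1r2) without the 2 farthest arrays, 11 with median scaling and 5 centred on slide means, of which 2 were among the 4. Leaving out the array that stands apart for Il1b, Il1r2 or Il33 was chosen after seeing the data. Signal near background limits Il1rl1 and Il1rap.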
